A study of Rattus norvegicus with 9 samples.

Results

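The negative arm of the circadian clock was followed through 8 genes, out of 37203 gene symbols in the count table: the period genes Per1, Per2 and Per3, the cryptochromes Cry1 and Cry2, the DEC repressors Bhlhe40 and Bhlhe41, and Ciart. They were selected on gene symbol and known role, and the choice was made after the fold changes of these same libraries had been seen. Levels and fold changes are therefore given as a description, with no test of the single genes. All 8 were among the 15482 genes with enough counts to be tested.

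The tissue was the superior mesenteric artery of Sprague-Dawley rats aged 8 weeks and weighing 220 to 240 g. There were 3 groups of 3 libraries: normal, 1 h of ischemia and 4 h of ischemia, with no altered allele named. Ischemia here meant blood loss through a femoral catheter under pentobarbital, and not a clamp on this artery, and the hours were counted once the model was made. The hour of day at collection is not given in the sources used here, nor whether normal rats were anaesthetised or catheterised. Clock transcripts follow the hour of day, so a difference in hour, anaesthesia or surgery between the groups cannot be told apart from ischemia. The study names 3 individuals for its 9 samples of 3 conditions, read here as 3 rats for each group. The p-values weigh differences between groups against the spread between rats within groups.

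In the mammalian clock, CLOCK (or NPAS2) pairs with BMAL1, the product of Arntl, and switches on genes that carry E-box motifs. PER and CRY proteins accumulate, bind that pair and shut it down, which closes a daily loop. BHLHE40 and BHLHE41, also called DEC1 and DEC2, compete for the same E-boxes, and CIART, also called CHRONO, binds BMAL1 and represses it. Per1 and Bhlhe40 are also acute genes: Per1 answers cAMP signalling and glucocorticoids, and Bhlhe40 answers many stimuli, low oxygen among them. The clock runs in vascular smooth muscle and endothelium as well as in the brain.

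The sequence just before the gene start was available from RefSeq for 7 of the 8 genes, all except Cry1, on build GRCr8. The window was the 250 bases before the start that RefSeq gives, and E-boxes (CACGTG) and E-prime boxes (CACGTT) were searched on both strands. Of 33469 such windows in the rat genome, 5.59% held an E-box, and 3 of the 7 members did. An E-prime box was in 4.07% of all windows and in 2 of the 7 (Per2 and Cry2). Windows of 5 members are printed, to set the DEC pair and Ciart, which hold E-boxes, beside a pair of period genes, with E-boxes and E-prime boxes in capitals. Ciart (chr2:186112247-186112496, minus strand) held 3 E-boxes, which 0.0508% of all windows do. Bhlhe40 (chr4:143174200-143174449, plus strand) and Bhlhe41 (chr4:180569356-180569605, minus strand) held an E-box each, at 220 and 48 bases before the start. Per2 (chr9:99496994-99497243, minus strand) held an E-prime box 62 bases before the start, and Per3 (chr5:166777801-166778050, minus strand) held neither.
Per2: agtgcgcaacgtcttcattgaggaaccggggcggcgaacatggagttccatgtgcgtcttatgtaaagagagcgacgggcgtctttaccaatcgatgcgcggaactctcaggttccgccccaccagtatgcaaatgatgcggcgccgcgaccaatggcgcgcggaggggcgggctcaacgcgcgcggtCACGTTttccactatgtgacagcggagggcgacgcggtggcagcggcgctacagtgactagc
Per3: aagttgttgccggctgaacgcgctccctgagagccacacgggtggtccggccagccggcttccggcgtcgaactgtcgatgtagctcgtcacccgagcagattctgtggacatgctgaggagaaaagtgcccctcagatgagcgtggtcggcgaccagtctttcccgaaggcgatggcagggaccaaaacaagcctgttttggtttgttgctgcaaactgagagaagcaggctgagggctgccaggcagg
Bhlhe40: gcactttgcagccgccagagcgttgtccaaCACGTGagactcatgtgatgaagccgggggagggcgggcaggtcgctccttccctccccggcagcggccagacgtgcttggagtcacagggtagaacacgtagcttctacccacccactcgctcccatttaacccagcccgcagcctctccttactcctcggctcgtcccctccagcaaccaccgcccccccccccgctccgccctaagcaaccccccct
Bhlhe41: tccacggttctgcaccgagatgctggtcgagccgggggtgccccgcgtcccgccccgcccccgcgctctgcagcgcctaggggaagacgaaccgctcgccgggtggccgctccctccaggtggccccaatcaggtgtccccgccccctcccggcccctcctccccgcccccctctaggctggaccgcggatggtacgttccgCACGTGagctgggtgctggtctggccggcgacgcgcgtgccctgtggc
Ciart: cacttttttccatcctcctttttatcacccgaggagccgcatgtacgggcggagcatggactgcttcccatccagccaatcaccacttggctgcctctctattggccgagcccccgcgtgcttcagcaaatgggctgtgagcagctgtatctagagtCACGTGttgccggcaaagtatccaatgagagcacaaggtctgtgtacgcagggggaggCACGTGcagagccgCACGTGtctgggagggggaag

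Further motifs were searched in the same windows. A D-box (TTATGTAA), the site of PAR bZIP factors, was found in Per2 alone of the 7 members, 192 bases before the start, and in 0.828% of all windows. The other D-box form (TTACGTAA, 0.108% of windows), the ROR element cores TAGGTCA and TGGGTCA (2.26% and 3.44%), the full cAMP response element TGACGTCA (1.59%) and the glucocorticoid core ACANNNTGT (5.81%) were in 0 of the 7. The shorter cAMP site TGACG was in 18.2% of windows and in 1 of the 7 (Per3, 164 bases before the start). The hypoxia response core ACGTG, which every E-box and E-prime box contains, was in 5 of the 7 and in 16.6% of all windows. These 5 are the members with an E-box or an E-prime box, so the count is no separate observation. Bhlhe40 held 4 copies, of which 2 lie in its E-box. The window of Per1 held none of the motifs searched, at the start that RefSeq lists. These are matches of letters and say nothing of binding.

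Total counts per library ran from 13114273 to 15504240, and levels are given as CPM, counts scaled to a common library size with the TMM method, so that 1 CPM stood for 12.1 to 17.9 counts. The libraries differed in tissue make-up within every group. The summed level of 6 smooth muscle markers (Myh11, Acta2, Cnn1, Tagln, Smtn, Des) was 10075 to 44243 CPM in normal rats, 11623 to 42441 CPM at 1 h and 21976 to 63453 CPM at 4 h, so the labelled tissue had its defining transcripts in all 9 libraries. The sum of 18 peripheral nerve markers ran from 99.4 to 2699 CPM in normal rats, 1881 to 9279 CPM at 1 h and 242 to 9023 CPM at 4 h. Nerve markers also differed between groups, with a median log2 fold change of 3.91 at 1 h and 2.78 at 4 h. At 1 h 12 of 18 were separated from normal, all 12 higher, against 26.3% of all genes. At 4 h 0 of 18 were separated, against 18.7% of all genes. At either time 0 of 18 were called, against 0.0581% and 0.0904% of all genes. In whole tissue, fewer cells of a type and less RNA per cell cannot be told apart.

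Among the period genes, Per1 was higher and Per3 lower in every ischemic library than in every normal one, while Per2 overlapped throughout. Per1, the early-responding period gene, was at 183, 197 and 151 CPM in normal replicates 1 to 3, at 281, 377 and 218 CPM after 1 h, and at 647, 504 and 408 CPM after 4 h. The 3 groups formed 3 separate steps with no overlap. Means were 177 ± 23.5, 292 ± 80.4 and 519 ± 120.3 CPM (SD, n = 3 each), and the fitted log2 fold change was 0.72 (SE 0.27) at 1 h and 1.55 (SE 0.28) at 4 h, the latter 2.93-fold. Behind these levels stood 2045 to 7820 counts per library.

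Per3, the period gene least needed for rhythm, was at 53.5, 40.7 and 60.8 CPM in normal rats. Levels were 9.43, 31.4 and 20.1 CPM after 1 h, and 15.96, 16.7 and 11.8 CPM after 4 h. All 6 ischemic libraries were below the lowest normal one, and the 3 libraries at 1 h were the most spread. Means were 51.6 ± 10.2, 20.3 ± 11.0 and 14.8 ± 2.66 CPM, with a log2 fold change of -1.35 (SE 0.40) at 1 h and -1.80 (SE 0.41) at 4 h, the latter 3.49-fold lower. Per2, whose product holds the repressor complex together, was at 39.8, 100.1 and 116 CPM in normal rats, at 73.6, 113 and 74.0 CPM after 1 h, and at 144, 106 and 71.3 CPM after 4 h. The spread within groups covered the differences between them, with log2 fold changes of 0.03 (SE 0.42) and 0.33 (SE 0.42).

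**Figure D1:**
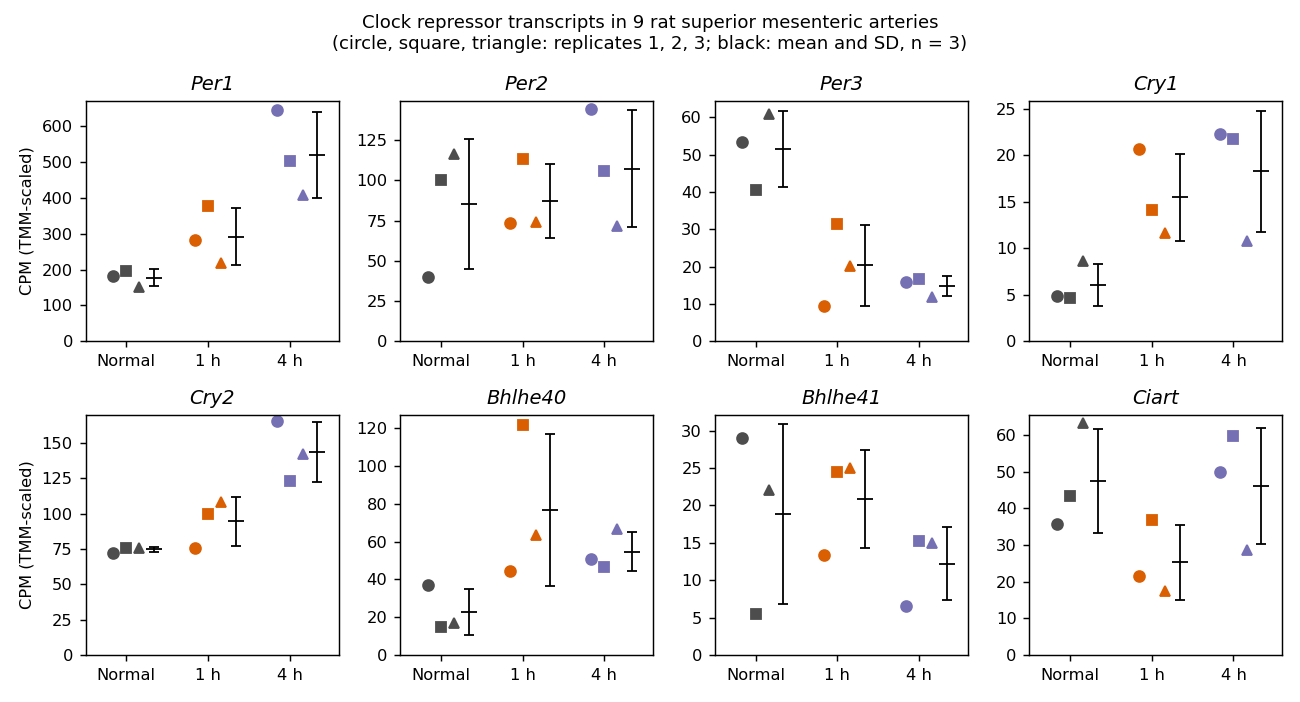
CPM (vertical axis, TMM-scaled) of the 8 clock repressor genes in normal arteries and after 1 h or 4 h of ischemia (horizontal axis), with a point for each library, shaped by replicate number, and the mean and SD of 3 in black. Per1 lies in 3 separate steps from 151 to 647 CPM, Per3 is at 31.4 CPM or less in all ischemic libraries, and Per2 and Bhlhe41 overlap in all groups.

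Both cryptochromes were higher at 4 h, and Cry1 was already higher at 1 h. Cry1, the stronger repressor of the pair, was at 4.87, 4.60 and 8.64 CPM in normal rats, at 20.7, 14.1 and 11.7 CPM after 1 h, and at 22.3, 21.8 and 10.8 CPM after 4 h. All 6 ischemic libraries were above the highest normal one, and the groups at 1 h and 4 h overlapped. Its means were 6.04 ± 2.26, 15.5 ± 4.69 and 18.3 ± 6.53 CPM, with log2 fold changes of 1.36 (SE 0.39) and 1.60 (SE 0.40) against normal. Cry1 had the fewest counts of the 8 genes, 63 to 310 per library.

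Cry2 was nearly level across normal rats, at 72.3, 75.8 and 75.8 CPM. Levels were 75.3, 99.9 and 108 CPM after 1 h, where the lowest library lay within the normal range, and 165, 123 and 142 CPM after 4 h, above all other libraries. Means were 74.7 ± 2.003, 94.4 ± 17.1 and 143 ± 21.2 CPM, and log2 fold changes were 0.34 (SE 0.19) and 0.94 (SE 0.19), the latter 1.92-fold.

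The DEC repressors parted: Bhlhe40 was higher in every ischemic library on the TMM scale and Bhlhe41 was not. With library size as the only scaling, Bhlhe40 overlapped normal at 4 h. Bhlhe40 was at 36.8, 14.6 and 16.8 CPM in normal rats, at 44.4, 122 and 63.3 CPM after 1 h, and at 50.8, 46.8 and 66.6 CPM after 4 h. Normal replicate 1 was well above the other normal libraries but below every ischemic one, and replicate 2 at 1 h stood above all. Means were 22.7 ± 12.3, 76.5 ± 40.2 and 54.7 ± 10.5 CPM, with log2 fold changes of 1.75 (SE 0.46) at 1 h and 1.27 (SE 0.46) at 4 h. Bhlhe41 was at 28.9, 5.47 and 22.0 CPM in normal rats, at 13.3, 24.4 and 24.9 CPM after 1 h, and at 6.53, 15.2 and 14.9 CPM after 4 h. Its normal libraries spanned the levels of all others, and its log2 fold changes were 0.15 (SE 0.59) and -0.62 (SE 0.59). Both genes carry an E-box in the windows printed above.

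Ciart, the gene with 3 E-boxes, was lowest at 1 h. It was at 35.6, 43.4 and 63.2 CPM in normal rats, at 21.5, 36.9 and 17.6 CPM after 1 h, and at 49.9, 59.6 and 28.7 CPM after 4 h. At 1 h only replicate 2 reached into the normal range, where it exceeded normal replicate 1. Means were 47.4 ± 14.2, 25.3 ± 10.2 and 46.1 ± 15.8 CPM, with log2 fold changes of -0.90 (SE 0.38) at 1 h and -0.04 (SE 0.38) at 4 h.

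Over the whole table, edgeR's quasi-likelihood test called few genes, and none of the 8. Calls needed a fold change above 1.5 beside an adjusted p below 0.05. At 1 h 0 of 8 members were called, against 0.0581% of all genes, while 5 reached an unadjusted p below 0.05, against 16.7%. Ischemic and normal libraries were fully separated at 1 h in 4 of 8 members (Per1, Cry1 and Bhlhe40 higher, Per3 lower), against 26.3% of all genes. At 4 h 0 of 8 were called, against 0.0904%, and 5 had an unadjusted p under 0.05, against 12.4%. At that time 5 of 8 did not overlap normal (the same 4 genes and Cry2), against 18.7% of all genes. Since the members were chosen with these contrasts known, nothing is read from these counts. DESeq2 called 3 of 8 at 1 h (Per3, Cry1 and Bhlhe40), where it called 4.53% of all genes, and 4 of 8 at 4 h (Per1, Per3, Cry1 and Cry2), where it called 3.91%. Per3 at 1 h was only just under the adjusted p threshold, and nothing is read from these calls either. The median log2 fold change of the 8 was 0.24 at 1 h and 0.63 at 4 h, beside -0.0076 and 0.027 over all genes tested. The contrasts at 1 h and 4 h share their normal libraries.

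**Figure D2:**
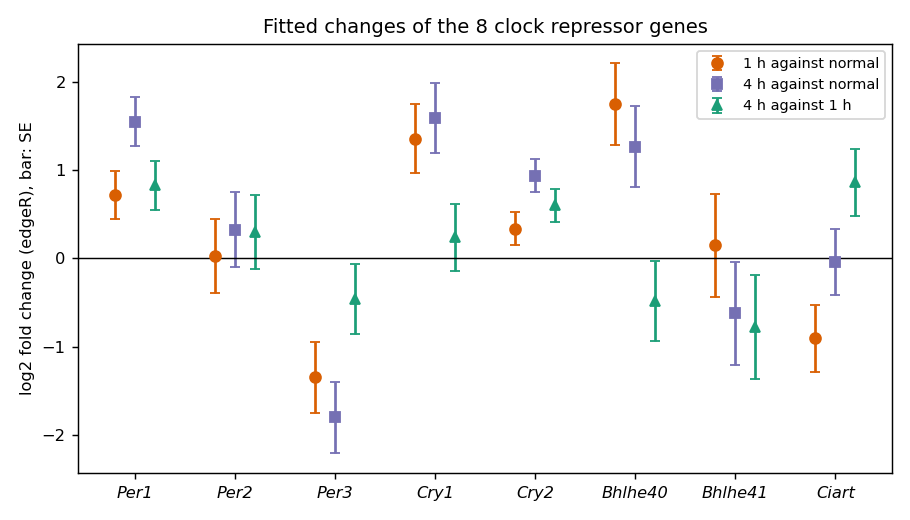
Fitted log2 fold changes (vertical axis, edgeR) of the 8 genes for 1 h against normal, 4 h against normal and 4 h against 1 h, with bars of 1 SE. Per1, Cry1 and Bhlhe40 lie above 0 and Per3 below 0 at both times, from -1.80 for Per3 to 1.75 for Bhlhe40, and Per2 lies within 1 SE of 0 in all 3 contrasts.

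Between 4 h and 1 h no gene of the table was called, and the members' differences were not past the test. The edgeR test called 0 of 8 members, against 0.00% of all genes, with 2 of 8 (Per1 and Cry2) at an unadjusted p under 0.05, against 2.58%. DESeq2 called 0 of 8 too, and 0.00% of all genes. The 3 libraries at 4 h lay above the 3 at 1 h for these 2 genes, against 6.24% of all genes whose groups did not overlap. On the log2 scale Per1 differed by 0.83 (SE 0.28) and Cry2 by 0.60 (SE 0.19), given as a description, since this contrast comes from the same libraries that were known when the genes were chosen. Ciart differed by 0.86 (SE 0.38) with overlapping groups. The other 5 differed by between -0.77 (Bhlhe41, SE 0.59) and 0.30 (Per2, SE 0.42), and their groups overlapped. With library size as the only scaling, Cry2 at 4 h overlapped 1 h.

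Ratios of counts within a library need no scaling between libraries, and they set related genes side by side. They are built from the counts behind the levels given above, so they are no separate observation. Per1 counts over Per3 counts were 3.43, 4.84 and 2.48 in normal rats, 29.8, 12.0 and 10.8 after 1 h, and 40.5, 30.3 and 34.7 after 4 h. The 3 groups did not overlap, and the mean log2 ratio went from 1.79 ± 0.48 to 3.98 ± 0.80 and 5.13 ± 0.21 (SD, n = 3 each). Per2 over Per3 was also above all normal libraries in all 6 ischemic ones, with mean log2 ratios of 0.60 ± 0.91, 2.23 ± 0.63 and 2.82 ± 0.31. For Per1 over Per2 the ischemic and normal libraries overlapped, since normal replicate 1 had a ratio of 4.61, but the 4 h libraries (4.48, 4.76 and 5.71) were all above those at 1 h (3.82, 3.33 and 2.94).

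The ratio of Cry1 to Cry2 did not separate the groups, with mean log2 ratios of -3.69 ± 0.49, -2.63 ± 0.70 and -3.03 ± 0.62. Bhlhe40 over Bhlhe41 was 1.27, 2.67 and 0.762 in normal rats, 3.34, 4.98 and 2.54 after 1 h, and 7.77, 3.08 and 4.46 after 4 h. Only the 4 h libraries were all above normal, because replicate 3 at 1 h was just below normal replicate 2. Since transcript lengths were not used, a ratio compares libraries and does not say which gene of a pair was more abundant. An exact permutation test of 3 against 3 cannot go below p = 0.10, and none was run on these ratios.

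**Figure D3:**
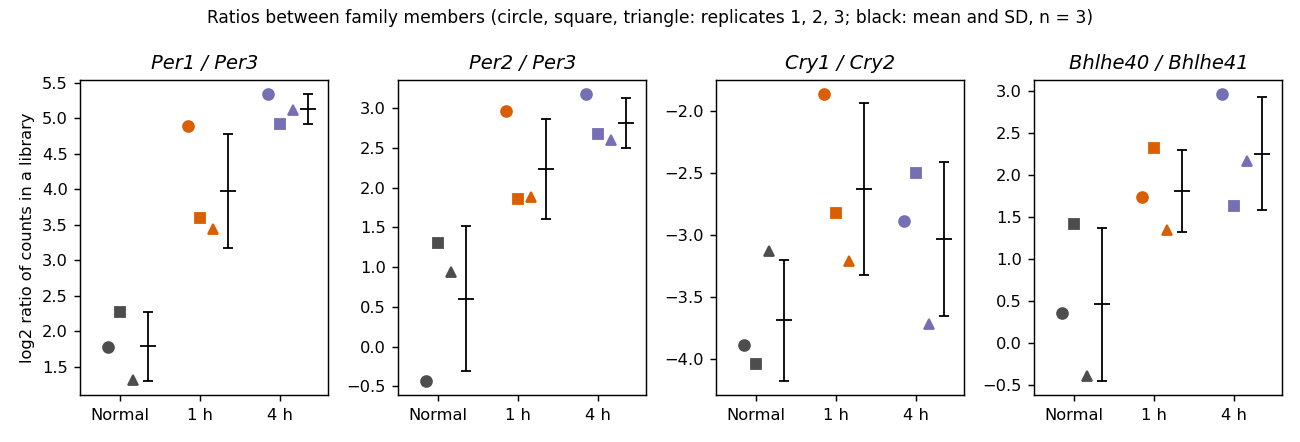
Log2 ratio of raw counts of 2 genes within each library (vertical axis) by group, with a point for each library, shaped by replicate number, and the mean and SD of 3 in black. Per1 over Per3 separates all 3 groups, with means of 1.79, 3.98 and 5.13, whereas Cry1 over Cry2 overlaps.

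The remaining clock genes were taken from lists of the activators and their nuclear receptors (8 tested) and of PAR bZIP output factors (3 tested). In the first list 1 of 8 was called at 1 h (lower) and 0 of 8 at 4 h, and in the second 1 of 3 was called at each time (higher), against 0.0581% and 0.0904% of all genes. An unadjusted p under 0.05 was reached by 3 of 8 and 3 of 3 at 1 h, against 16.7% of all genes, and by 4 of 8 and 3 of 3 at 4 h, against 12.4%. Median log2 fold changes were -0.24 and -0.23 in the first list and -1.26 and -1.43 in the second. Arntl, the gene of BMAL1, the target of these repressors, was at 32.3, 28.2 and 18.2 CPM in normal rats, at 63.3, 58.8 and 53.9 CPM after 1 h, and at 71.7, 65.5 and 61.3 CPM after 4 h. It was above normal in all 6 ischemic libraries, with log2 fold changes of 1.16 (SE 0.22, adjusted p = 0.141, edgeR) and 1.33 (SE 0.22, adjusted p = 0.0712, edgeR). Nr1d1, the gene of the REV-ERB alpha receptor that represses Arntl, fell at 1 h from 198 to 217 CPM in normal rats to 11.4 to 31.2 CPM, with a log2 fold change of -3.41 (SE 0.40) and an adjusted p of 0.0454 by edgeR. At 4 h it was at 29.4 to 50.2 CPM, with a log2 fold change of -2.43 (SE 0.38) and an adjusted p of 0.0701 by edgeR. The single call in this list at 1 h was lost without any one library other than replicate 2 at 1 h, the count then being 0 of 8.

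Its relative Nr1d2 was also below normal in all 6 ischemic libraries, at 24.2 to 65.3 CPM after 1 h and 24.4 to 53.4 CPM after 4 h, against 108 to 139 CPM. Dbp, an output factor whose gene is driven through E-boxes like those of Per genes, was at 56.2, 61.2 and 215 CPM in normal rats and between 4.71 and 10.1 CPM in all 6 ischemic libraries, with log2 fold changes of -3.85 (SE 0.59, adjusted p = 0.117, edgeR) and -3.87 (SE 0.59, adjusted p = 0.0701, edgeR). Tef, its relative, was at 105 to 189 CPM in normal rats, 38.5 to 71.7 CPM after 1 h and 38.9 to 60.6 CPM after 4 h. Nfil3, which opposes these factors at D-boxes, rose at both times, from 9.07 to 14.4 CPM in normal rats to 69.0 to 89.8 CPM and 96.2 to 146 CPM (adjusted p = 0.0164 and 0.00501, edgeR). The call in this list went to 0 of 3 at 1 h without any one of the normal replicates, or without replicate 2 or 3 at 1 h, and at 4 h without normal replicate 2. Clock and Rora, outside the naming rule and picked after their values were seen, had log2 fold changes between 0.05 and 0.19 in both contrasts against normal. Npas2 and Rorb, also outside the rule, differed more. Npas2 had log2 fold changes of -1.06 (SE 0.53) and -0.60 (SE 0.52), with groups that overlapped normal. Rorb, at 2.46 CPM or less in every library, had log2 fold changes of 3.79 (SE 1.66) and 2.51 (SE 1.65). Neither was called.

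Set beside these genes, Per1, Cry1, Bhlhe40, Arntl and Nfil3 were above normal in all 6 ischemic libraries on the TMM scale. Per3, Nr1d2, Tef, Dbp and Nr1d1 were below normal in all 6. For Per1 and Cry2 the mean at 4 h was farther from normal than at 1 h, whereas for Nr1d1 it was nearer. The Nr1d1 difference was 0.98 on the log2 scale (SE 0.37, unadjusted p = 0.0277, adjusted p = 0.856, edgeR). Its list was chosen with earlier results of these data known, so these p-values are given as a description. Per3 over Nr1d1 within a library had a mean log2 ratio of -2.01 ± 0.36 in normal rats, 0.041 ± 0.34 after 1 h and -1.35 ± 0.40 after 4 h, with no overlap among the 3 groups.

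**Figure D4:**
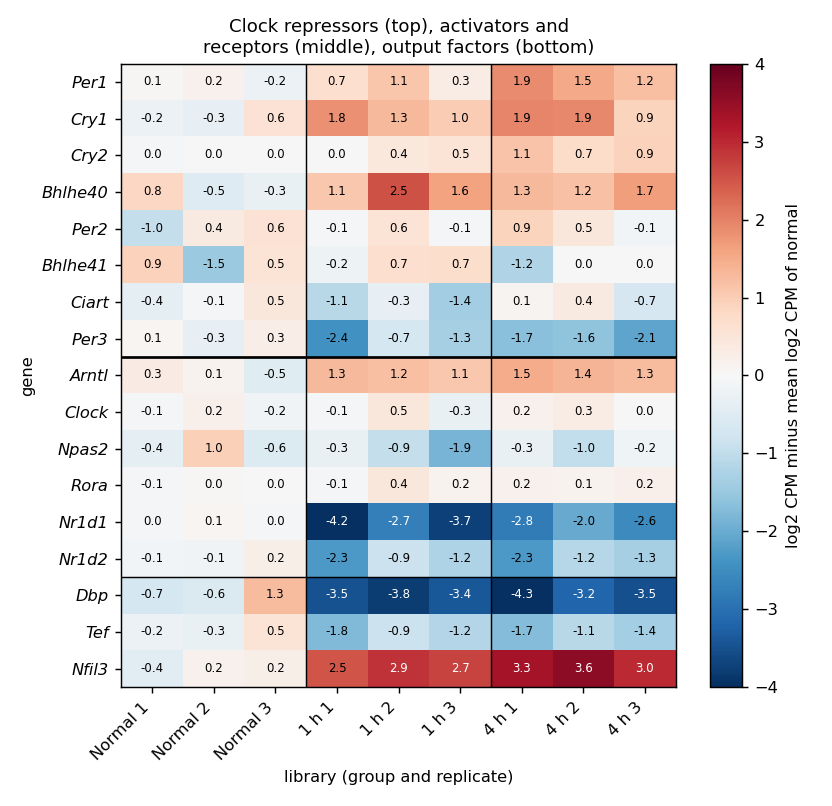
Log2 CPM minus the mean log2 CPM of the 3 normal libraries (colour and number) for 8 repressors, 6 activators and receptors and 3 output factors (rows) in 9 libraries (columns). Per3 shares its sign in every ischemic library with Npas2, Nr1d1, Nr1d2, Dbp and Tef, and Per1, Cry1, Cry2 and Bhlhe40 share theirs with Arntl and Nfil3. Of these, Npas2 overlaps normal at both times and Cry2 at 1 h.

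Some members also followed tissue make-up. Per2 was above 100 CPM in the 5 libraries whose smooth muscle marker sum was 42441 CPM or more (normal replicates 2 and 3, replicate 2 at 1 h, and replicates 1 and 2 at 4 h) and at 39.8 to 74.0 CPM in the other 4, and both sets lie in all 3 groups. Ciart was likewise at 36.9 to 63.2 CPM in those 5 libraries and at 17.6 to 35.6 CPM in the other 4. The part of smooth muscle content in these levels was not tested. Per1 did not follow it in normal rats, at 151 to 197 CPM while the marker sum ran from 10075 to 44243 CPM, but within each ischemic group its order over replicates was that of the markers, with 281, 377 and 218 CPM beside 23209.8, 42441 and 11623 CPM at 1 h, and 647, 504 and 408 CPM beside 63453, 44864 and 21976 CPM at 4 h. Bhlhe41 was lowest in normal replicate 2 and in replicate 1 at 4 h, at 5.47 and 6.53 CPM. These libraries had the lowest sums of 6 macrophage markers (31.8 and 20.6 CPM, against 35.3 to 100.4 CPM in the others). They also had the lowest sums of the 18 nerve markers (99.4 and 242 CPM, against 744 to 9279 CPM in the others). The part of macrophage or nerve content was not tested. With a nerve score (mean log2 CPM of the 18 nerve markers) as a covariate of the fit, log2 fold changes at 1 h were 1.01 (SE 0.27) for Per1, -1.18 (SE 0.44) for Per3, 1.62 (SE 0.46) for Cry1 and 1.57 (SE 0.50) for Bhlhe40. In that fit at 1 h Per2 was at 0.59 (SE 0.39) and Ciart at -0.50 (SE 0.36), beside 0.03 and -0.90 without the score. Cry2 was at 0.38 (SE 0.23) and Bhlhe41 at -0.32 (SE 0.56), beside 0.34 and 0.15. At 4 h the log2 fold changes with the score were 1.56 (SE 0.23) for Per1, -1.82 (SE 0.40) for Per3, 1.55 (SE 0.38) for Cry1, 0.94 (SE 0.19) for Cry2 and 1.27 (SE 0.45) for Bhlhe40. Endothelial markers summed to 332 to 1086 CPM, adipocyte markers to 266 to 2037 CPM, skeletal muscle markers to 26.8 to 203 CPM and pancreas markers to 1.74 to 66.8 CPM, each with overlapping groups, and lymphocyte markers summed to 0 to 36.2 CPM.

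**Figure D5:**
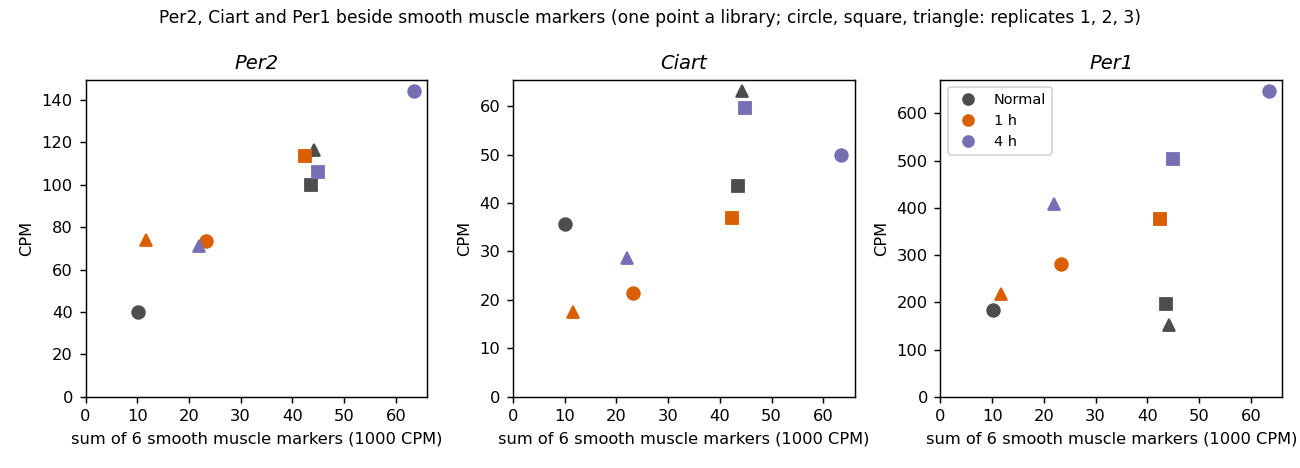
CPM of Per2, Ciart and Per1 (vertical axes) beside the sum of 6 smooth muscle markers in units of 1000 CPM (horizontal axis), with a point for each library, coloured by group and shaped by replicate number. Per2 is above 100 CPM in the 5 libraries with the most smooth muscle transcripts, and normal libraries of Per1 stay between 151 and 197 CPM along the axis.

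The genes most like each member across the 9 libraries were sought among 10429 genes with a mean of at least 5 CPM, as the smallest root mean square difference of log2 CPM after each gene's own mean was removed. For Per1 these were Tob2, an antiproliferative gene (0.207), and the row named Mir7a-1 (0.215), whose counts cannot be read as the mature miRNA. Per3 was closest to Nab2, a corepressor of EGR factors (0.263), and Clk1, a kinase of splicing factors (0.319), and Cry1 to the chaperone genes Dnaja1 (0.284) and Hspa5 (0.334). Cry2 was closest to Polr2d (0.125) and Abt1 (0.170), and Bhlhe40 to Cebpd, a C/EBP factor (0.300), and Sdc4, a syndecan (0.331). For the members that overlapped between groups, Per2 was closest to Stk38l (0.143) and Rcan2 (0.149), Bhlhe41 to Cep97 (0.302) and C1qb, a complement gene of macrophages (0.328), and Ciart to Ctf1 (0.177) and Chrac1 (0.188). The members themselves varied by a root mean square of 0.419 (Cry2) to 0.903 (Per3) around their own means. Differences under 0.5 were common for the flatter members, being found in 34.0% of the genes searched for Cry2 but 0.307% for Cry1 and 0.393% for Per3.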

How the data were processed

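RNA from 9 rat arteries was sequenced, and the authors deposited raw counts per gene symbol, 1 column per library, unnormalised. The submitters' processing notes name HISAT2. The counting program, genome build, annotation and use of strand are not given in the sources used here, and the study's methods also describe microarrays. Uncharacterised genes overlap Per2, Cry1 and Cry2 in GRCr8, so reads there could be split or shared.

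Genes were filtered with filterByExpr and scaled with TMM in edgeR 4.0.16 (R 4.3.3), and the quasi-likelihood F-test was fitted to all 9 libraries with group as the only term. Benjamini-Hochberg adjustment ran over 15482 genes. SE is the log2 fold change over the square root of F. The common biological coefficient of variation was 51.6%. The test was tried on simulated counts first. DESeq2 1.42.0, other scalings, no filter, a replicate block, a nerve score covariate (mean log2 CPM, prior count 2, of 18 nerve genes) and leaving out each library were the alternatives. No library was a copy of another (lowest chi-square per degree of freedom 29.9).

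The members and all gene lists were chosen with earlier results of these data known. All members were named. From each other list, called genes and up to 4 genes with the smallest p over the 3 groups were named. A gene that this rule names is not reported here. Likeness passed over uncharacterised identifiers. The listed genes Hlf, Fbxl21 and Ca9 were not analysed here, and Arntl2 was too low to test. Promoter windows and gene names came from RefSeq on GRCr8. Intervals and errors here cover the 9 libraries only.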

Additional observations from a re-analysis of the deposited data

How the results depend on the processing

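Of the 8 members, 0 were called in any contrast under the other scalings, without a filter, with only the compared groups, with the replicate block or without any single library (3 to 5 of 8 at an unadjusted p under 0.05 against normal without a library). DESeq2 called 3 at 1 h and 4 at 4 h, and with the nerve score as covariate 1 was called at 4 h (Per1), which is no test of that gene, since it was chosen with this contrast known. Over all genes, the counts at 1 h and 4 h (9 and 14) were 702 and 606 with DESeq2, 4 and 4 with only the compared groups, 17 and 125 with the nerve score, 7 and 7 with the replicate block, and 0 to 11 and 1 to 14 without single libraries. DESeq2 called 3 activators and 3 output factors at each time, and 2 of the PER and CRY partners. With the nerve score 2 activators, 2 output factors and 1 PER and CRY partner were called at 4 h. With only the compared groups 0 activators and 0 output factors were called at 1 h, and without single libraries each of these counts was 0 to 1.

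Same-numbered samples deviated with correlations from -0.651 to 0.660, so the numbers were not taken to pair the rats. With library size alone, a scaling added after seeing the data for the count of separated members, 1 member was separated between 4 h and 1 h (Per1, without Cry2), 4 at 4 h against normal (without Bhlhe40) and 5 at 1 h against normal (with Ciart added). That scaling moved the median log2 fold change of all genes to -0.24 between 4 h and 1 h and to -0.15 at 4 h against normal. The share of all genes separated under it was not counted, so nothing is read from these counts of members.

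Signs turned for small log2 fold changes. The nerve score gave -0.32 for Bhlhe41 at 1 h, and -0.23 for Per2 and -0.069 for Cry1 between 4 h and 1 h. Without single libraries, Per2 ran from -0.32 to 0.31 at 1 h, -0.015 to 0.62 at 4 h and -0.0049 to 0.54 between them, and Bhlhe41 from -0.29 to 0.60 at 1 h. Ciart ran from -0.27 to 0.22 at 4 h, and, between 4 h and 1 h, Per3 from -0.80 to 0.0043 and Bhlhe40 from -0.76 to 0.024. The cause was not tested.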

Other observations

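Genes that modify, degrade or partner PER and CRY proteins, numbered 13 among those tested. By edgeR with group as the only term 0 of 13 were called at 1 h and 4 h, with 5 and 4 at an unadjusted p under 0.05, all higher, against 16.7% and 12.4% of all genes. DESeq2 called 2 at each time, where it called 4.53% and 3.91% of all genes. With the nerve score as covariate edgeR called 1 at 4 h, where it called 125 of all 15482 genes. Wee1, a cell cycle kinase gene under clock control, was at 26.0 to 29.6 CPM in normal rats, 42.5 to 67.0 CPM after 1 h and 50.0 to 63.0 CPM after 4 h. Ccrn4l, the gene of the deadenylase nocturnin, was at 2.41, 0.803 and 1.11 CPM in normal rats and at 25.2, 19.1 and 42.8 CPM after 1 h, but at 0.910, 8.29 and 22.7 CPM after 4 h, where replicate 1 lay in the normal range. Fbxw11, a ubiquitin ligase subunit that acts on PER, was at 54.1 to 62.8 CPM in normal rats and at 67.1 to 85.0 CPM in the 6 ischemic libraries. Usp2, a deubiquitinase, had a log2 fold change of 0.00 (SE 0.41) at 1 h and 0.99 (SE 0.41) at 4 h, not called.

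Lists of genes that share stimuli with Per1 and Bhlhe40 were counted too. Of 12 glucocorticoid targets, 1 was called at each time (Nfkbia, higher), against 0.0581% and 0.0904% of all genes. At 1 h 8 and at 4 h 10 had an unadjusted p under 0.05, all higher, against 16.7% and 12.4% of all genes, with median log2 fold changes of 2.07 and 2.10. Sgk1 was at 31.4 to 51.3 CPM in normal rats and 76.3 to 149.6 CPM in ischemic ones, Cdkn1a at 15.5 to 70.4 and 260.1 to 782 CPM, and Errfi1 at 80.2 to 281 and 859 to 3739 CPM. Of 12 early genes driven by CREB, Sik1 was called at both times and Nr4a1 at 4 h (log2 fold change 3.88, SE 0.46, adjusted p = 0.0316, edgeR), with medians of 1.55 and 1.72, and 7 of 12 at each time had an unadjusted p under 0.05, all higher, against 16.7% and 12.4% of all genes. Nr4a3 had log2 fold changes of 3.07 (SE 0.71) and 2.38 (SE 0.69), and Crem of 1.71 (SE 0.46) and 0.71 (SE 0.45), neither called.

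Of 15 hypoxia targets none was called by edgeR, with 5 at an unadjusted p under 0.05 at each time, against 16.7% and 12.4% of all genes, and the medians were 0.24 and 0.26. Vegfa was at 70.5 to 74.2 CPM in normal rats, 93.6 to 154 CPM after 1 h and 145 to 223 CPM after 4 h. Adm had log2 fold changes of 2.10 (SE 0.49) and 1.74 (SE 0.48), Bnip3 of 1.60 (SE 0.36) and 0.98 (SE 0.36), and Ankrd37, at 0.535 to 5.98 CPM, of -1.999 (SE 0.60) and -1.52 (SE 0.60).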
